A study of Mus musculus with 6 samples.

Results

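The histone deacetylase genes examined here are the 10 genes Hdac1 to Hdac10, taken from the deposited table of 47719 genes by their symbol, and each symbol stood on 1 row. They were measured by RNA sequencing in cells of the mouse spinal cord that carry CD11b, a surface integrin of microglia and other myeloid cells. The mice were Biozzi ABH, an inbred strain, and 3 months old. One group had electroconvulsive seizures (ECS), which are seizures set off by a brief electrical stimulus, in 3 sessions on successive days, and was killed on the day after the last. The other group, labelled control and described as naive, is said in the treatment protocol to have been given sham sessions. Each group had 3 libraries and each library held cells of 5 pooled mice, so n counts pools, the spread between single mice cannot be seen, and p-values measure the spread between these pools.

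Histone deacetylases remove acetyl groups from lysines of histones and of other proteins, and on chromatin their work goes with closed, less transcribed genes. Class I enzymes (Hdac1, Hdac2, Hdac3 and Hdac8) are mostly nuclear, class IIa proteins (Hdac4, Hdac5, Hdac7 and Hdac9) move between nucleus and cytoplasm and bind Mef2 transcription factors, and class IIb enzymes (Hdac6 and Hdac10) act largely in the cytoplasm. In mice, loss of Hdac1 and Hdac2 from microglia is known to alter the development and inflammatory behaviour of these cells, and Hdac3 is known to be needed for part of the inflammatory gene programme of macrophages.

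Hdac1 shares long stretches of sequence with a processed pseudogene, and the sequences are shown for that reason. The pseudogene, Gm10093, is an intron-free copy of the Hdac1 message elsewhere in the genome. Over 1444 aligned bases it is 99.4% identical to the Hdac1 coding sequence of 1449 bases, with 9 differences and an identical run of 450 bases. The stretch with most differences is printed for the gene, for the copy and for the closest relative in the family, Hdac2, all in GRCm38 from GENCODE M21 transcripts. Capitals in the Hdac1 line mark bases that differ from Gm10093, and capitals in the other lines mark bases that differ from Hdac1.
Hdac1: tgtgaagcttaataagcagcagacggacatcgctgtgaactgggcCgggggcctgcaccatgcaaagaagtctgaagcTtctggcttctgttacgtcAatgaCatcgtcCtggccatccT
Gm10093: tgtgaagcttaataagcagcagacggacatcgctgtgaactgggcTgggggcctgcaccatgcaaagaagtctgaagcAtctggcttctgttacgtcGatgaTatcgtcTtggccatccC
Hdac2: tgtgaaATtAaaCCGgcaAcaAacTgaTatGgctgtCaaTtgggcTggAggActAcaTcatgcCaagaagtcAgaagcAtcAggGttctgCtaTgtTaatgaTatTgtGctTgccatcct
The Hdac1 line lies within 1 coding exon on the minus strand (chr4:129522975-129523094), the Gm10093 line lies on the plus strand (chr17:78491944-78492063), and the Hdac2 line lies within 1 coding exon on the plus strand (chr10:36989157-36989276). Counted from the first base of the Hdac1 start codon, the copy carries C408T, T441A, A460G, C465T, C472T and T482C here, and G342A, T719C and C1170A elsewhere. Hdac2 has 30 differences from Hdac1 over these 120 bases, and over the whole coding sequence the longest run that both share is 17 bases. No stretch of 50 bases was shared between the transcripts of any 2 of the 10 members, while 31.7% of such stretches in Hdac1 transcripts also occur in Gm10093, and 4.84% and 4.41% in 2 further processed pseudogenes, which the sum below leaves out. Reads that fall within an identical run match both loci equally, and how the authors' counting placed them is not recorded, so the values of both rows are uncertain and a sum over the pair is given beside Hdac1 below.

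Levels are in FPKM (sequenced fragments divided by transcript length and by library size), so they can be set side by side across genes. The libraries are those of a myeloid sample: Itgam, which encodes CD11b, was between 577 and 747 FPKM in ECS and between 504 and 689 FPKM in control, and 8 microglia markers together reached 5844 to 8987 FPKM in ECS and 7392 to 9939 FPKM in control. Of 5 neuron markers, each was listed at 0 in at least 1 library, and together they reached at most 6.59 FPKM. Other cells were present. Neutrophil markers (8 genes, none at 0) summed to 8479 to 10302 FPKM in ECS and 11036 to 20013 FPKM in control, and erythroid markers (6 genes, 3 of them at 0 in some libraries) to 7207 to 77287 FPKM in ECS and 2231 to 32755 FPKM in control. The erythroid markers did not move together. Hbb-bs was at 619 FPKM in ECS 3, at 156 FPKM in control 1 and between 16524 and 73251 FPKM elsewhere. Hba-a1 was at 6510 FPKM in ECS 3, at 2059 FPKM in control 1 and at 0 elsewhere. ECS 3 and control 1 were also lowest for summed oligodendrocyte markers (48.4 and 39.1 FPKM, against 128 to 194 FPKM elsewhere). The same held for endothelial and mural markers (42.9 and 45.2 FPKM, against 136 to 400 FPKM elsewhere). Border macrophage markers did not follow this split, at 132 to 588 FPKM in ECS and 83.1 to 142 FPKM in control. T and NK cell markers did not either. B cell markers (5 genes) summed to 708 FPKM in ECS 1 and to at most 36.8 FPKM elsewhere, but Pax5 alone was at 652 FPKM in ECS 1, and the other 4 markers summed to 55.7 FPKM there, against 8.63 to 35.1 FPKM in the other libraries. ECS 1 also stood apart by its zeros: 1580 of 11315 tested genes were listed at 0 there, against 448 to 806 in the other libraries. In such mixed samples, fewer cells of a type and less RNA per cell cannot be told apart.

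Hdac5 led the family, followed by Hdac3 and Hdac1, and neighbours further down the order lay within each other's spread. Mean levels over the 6 libraries ran from 30.8 FPKM for Hdac5 to 1.67 FPKM for Hdac8, an 18.4-fold range, where the median of all genes tested was 7.57 FPKM. The order was Hdac5, Hdac3, Hdac1, Hdac4, Hdac6, Hdac7, Hdac10, Hdac9, Hdac2 and Hdac8. Of the 9 steps between neighbours in this order, only that from Hdac5 to Hdac3 exceeded its SD over the libraries, at 1.27 ± 0.38 on the log2(FPKM + 1) scale (SD, n = 6), and it had the same direction in 6 of 6 libraries. Of all 45 pairs of members, 17 had ranges over the 6 libraries that did not overlap: 8 of these had Hdac5 as the higher gene, 5 had Hdac3, 3 had Hdac1 and 1 had Hdac4. The lowest Hdac3 value, 9.22 FPKM, was above each value of Hdac7, Hdac10, Hdac9, Hdac2 and Hdac8. Hdac5 was first in 5 libraries, and in control 3 it came second to Hdac4.

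**Figure D1:**
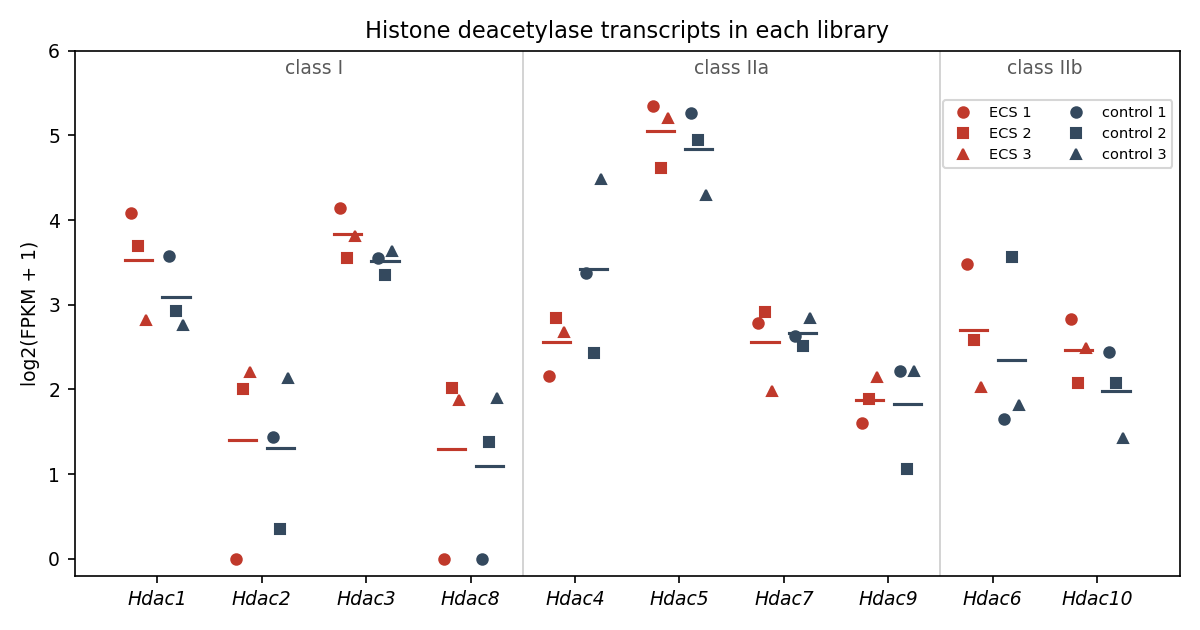
Levels of the 10 genes in each library on the log2(FPKM + 1) scale, by class, with ECS pools in red, control pools in dark grey and a bar at each group's mean (n = 3 each). The points of both groups overlap for every gene, Hdac5 is the highest in 5 of 6 libraries, and Hdac2 and Hdac8 reach 0 in ECS 1.

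The question put to these data is whether deacetylase transcripts differed in these cells after the seizures. No member was called, and none had groups that did not overlap. All 10 passed the filter of a mean of at least 1 FPKM. In limma on log2(FPKM + 1), with Benjamini-Hochberg adjustment over 11315 genes, 0 of 10 members and 0% of all genes tested passed an adjusted p of 0.05, and the smallest adjusted p among the members was 1.00. At an unadjusted p under 0.05 there were 0 of 10 members, where 414 genes or 3.66% of all genes tested lay below that value (1.71% higher in ECS and 1.94% lower in ECS). Without control replicate 2 the count was 1 of 10, Hdac4, in a fit where 385 of 11254 genes lay below 0.05. The library left out held the only control value of Hdac4 within the range of ECS. Groups did not overlap for 0 of 10 members and for 7.49% of all genes tested. The log2 fold change, ECS minus control, was above 0 for 8 members and below 0 for 2, with a median of 0.21. Over all genes tested, 49.2% were above 0 and the median was -0.01. On refitting with single libraries left out or with other settings, 6 members changed sign at least once and 4 did not. All members were measured in the same libraries, so their signs are not independent of each other.

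The class I genes come first. Hdac1 and Hdac2 encode the paired catalytic subunits of the Sin3, NuRD and CoREST corepressor complexes. Hdac1 (ENSMUSG00000028800) was at 15.9, 11.9 and 6.03 FPKM in ECS 1, 2 and 3, and at 10.9, 6.60 and 5.75 FPKM in control 1, 2 and 3. The 2 highest values were in ECS, but ECS 3 lay below control 1 and control 2. Its log2 fold change was 0.44 ± 0.45 (SE, 95% interval -0.62 to 1.502, limma adjusted p 1.00). Hdac1 stood at 0.16 without ECS replicate 1 and at 0.80 without ECS replicate 3.

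The pseudogene copy was listed at very different levels beside it. Gm10093 was at 0.0518, 3.24 and 3.45 FPKM in ECS 1, 2 and 3, and at 3.02, 4.69 and 1.78 FPKM in control 1, 2 and 3. ECS 1, which had the highest Hdac1, thus had almost nothing listed for the copy, at 0.325% of the sum of both, while the copy took 21.4% to 41.6% of that sum in the other libraries. Added together, the pair was at 16.0, 15.1 and 9.49 FPKM in ECS and at 13.96, 11.3 and 7.53 FPKM in control. The summed value narrowed the distance of ECS 1 to the next library, and its log2 fold change was 0.29 ± 0.38 (SE, limma adjusted p 1.00). Whether reads were moved between the rows in ECS 1 was not tested.

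**Figure D2:**
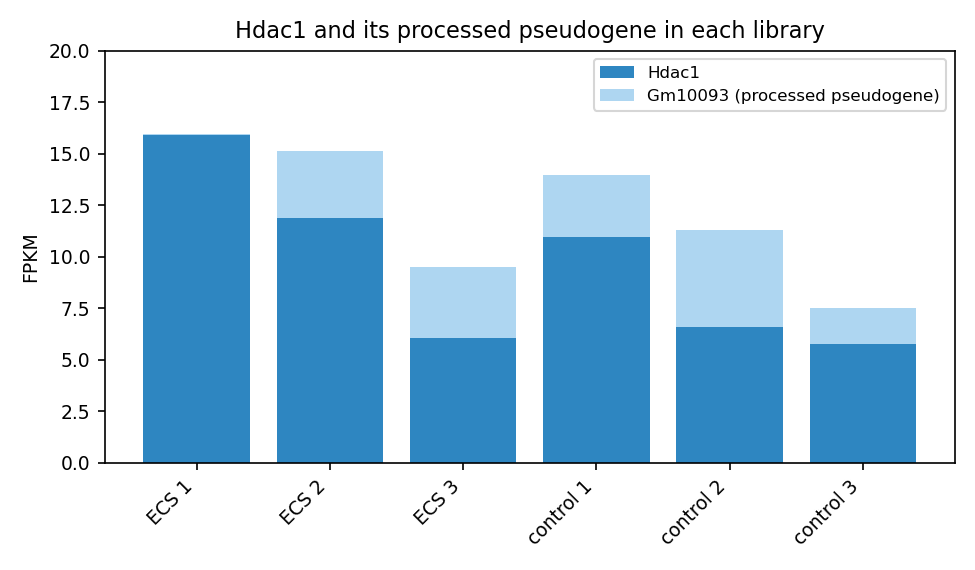
FPKM of Hdac1 (dark) with that of its processed pseudogene Gm10093 (light) stacked on it, in each of the 3 ECS and 3 control pools. The light part is 0.0518 FPKM in ECS 1 and between 1.78 and 4.69 FPKM in the other libraries.

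Hdac2 (ENSMUSG00000019777) was much lower than its partner. It was listed at 0, 3.01 and 3.63 FPKM in ECS 1, 2 and 3, and at 1.70, 0.271 and 3.39 FPKM in control 1, 2 and 3. The groups spanned the same range, and the zero fell in the library with most zeros. Hdac1 made up 62.4% to 100% of the FPKM of both genes in ECS and 63.0% to 96.1% in control. The interval of the Hdac2 log2 fold change ran from -1.74 to 1.95, so neither a 2-fold rise nor a 2-fold decline lies outside it.

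Hdac3, the catalytic subunit of the NCoR and SMRT corepressor complexes, varied least. It was at 16.6, 10.7 and 13.01 FPKM in ECS 1, 2 and 3, and at 10.7, 9.22 and 11.4 FPKM in control 1, 2 and 3. ECS 1 and ECS 3 lay above all control libraries and ECS 2 among them. Its log2 fold change was 0.32 ± 0.32 (SE, 95% interval -0.43 to 1.08, limma adjusted p 1.00). Without ECS replicate 1 the Hdac3 log2 fold change was 0.17. The residual SD of Hdac3 within groups was 0.23 on the log2(FPKM + 1) scale, against a median of 0.63 over all genes tested.

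Hdac8, which deacetylates the cohesin subunit Smc3 and works outside the large corepressor complexes, was the lowest member. It was listed at 0, 3.06 and 2.66 FPKM in ECS 1, 2 and 3, and at 0, 1.59 and 2.74 FPKM in control 1, 2 and 3. Each group thus had 1 library at 0 and the rest between 1.59 and 3.06 FPKM. An exact 0 in such a table can be a failed estimate as well as a low level.

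Among class IIa genes, Hdac4 had the largest difference of the family. It was at 3.47, 6.16 and 5.41 FPKM in ECS 1, 2 and 3, and at 9.35, 4.37 and 21.4 FPKM in control 1, 2 and 3. The ECS libraries lay close together and below 2 of the control libraries, but control 2 fell within their range. Its log2 fold change was -0.87 ± 0.57 (SE, 95% interval -2.19 to 0.46, limma adjusted p 1.00). Without control replicate 3, the highest library, the log2 fold change was -0.34, and without control replicate 2 it was -1.37. A long noncoding gene on the opposite strand, Gm26720, covers 21.6% of the 50-base stretches of Hdac4 transcripts, and it was listed at 0.0674, 1.02 and 0.703 FPKM in ECS 1, 2 and 3, and at 0, 0 and 0.541 FPKM in control 1, 2 and 3. These values are all far below those of Hdac4. The sources used here do not say if counting took strand into account, so reads of the 2 genes cannot be told apart where they overlap.

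Hdac5, the most abundant member, is a Mef2-binding repressor that leaves the nucleus when calcium-dependent or protein kinase D signalling phosphorylates it. It was at 39.6, 23.6 and 35.8 FPKM in ECS 1, 2 and 3, and at 37.5, 29.8 and 18.6 FPKM in control 1, 2 and 3. The groups covered nearly the same range. Its log2 fold change was 0.22 ± 0.36 (SE, 95% interval -0.63 to 1.07, limma adjusted p 1.00), and it was -0.05 without control replicate 3.

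Hdac7, best known as a regulator of developing thymocytes and of vessels, was at 5.91, 6.56 and 2.96 FPKM in ECS 1, 2 and 3, and at 5.18, 4.71 and 6.17 FPKM in control 1, 2 and 3. Both the highest and the lowest value were in ECS, and the log2 fold change was -0.10 ± 0.41 (SE). Hdac9, whose shorter products lack the catalytic domain and still repress Mef2, was at 2.03, 2.70 and 3.43 FPKM in ECS 1, 2 and 3, and at 3.65, 1.08 and 3.66 FPKM in control 1, 2 and 3. The lowest and the highest value were both in control, and the log2 fold change was 0.05 ± 0.51 (SE). The deposited locus of Hdac9 spans 157387 bases and that of GENCODE M21 spans 869516 bases. The annotation behind this value is not given, so which Hdac9 exons it covers is not known.

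Class IIb holds Hdac6, the tubulin deacetylase that also carries ubiquitinated proteins to aggregates, and Hdac10, which removes acetyl groups from polyamines. Hdac6 was at 10.1, 5.01 and 3.07 FPKM in ECS 1, 2 and 3, and at 2.13, 10.8 and 2.52 FPKM in control 1, 2 and 3. It was high in 1 library of each group, ECS 1 and control 2. The Hdac6 log2 fold change was 0.36 ± 0.65 (SE), or -0.03 without ECS replicate 1. Hdac10 was at 6.14, 3.21 and 4.61 FPKM in ECS 1, 2 and 3, and at 4.43, 3.21 and 1.69 FPKM in control 1, 2 and 3. The highest libraries were ECS 1 and ECS 3, while ECS 2 lay just below control 2. For Hdac10 the log2 fold change was 0.48 ± 0.46 (SE, 95% interval -0.60 to 1.56, limma adjusted p 1.00), and it was 0.30 without ECS replicate 1 and 0.21 without control replicate 3.

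**Figure D3:**
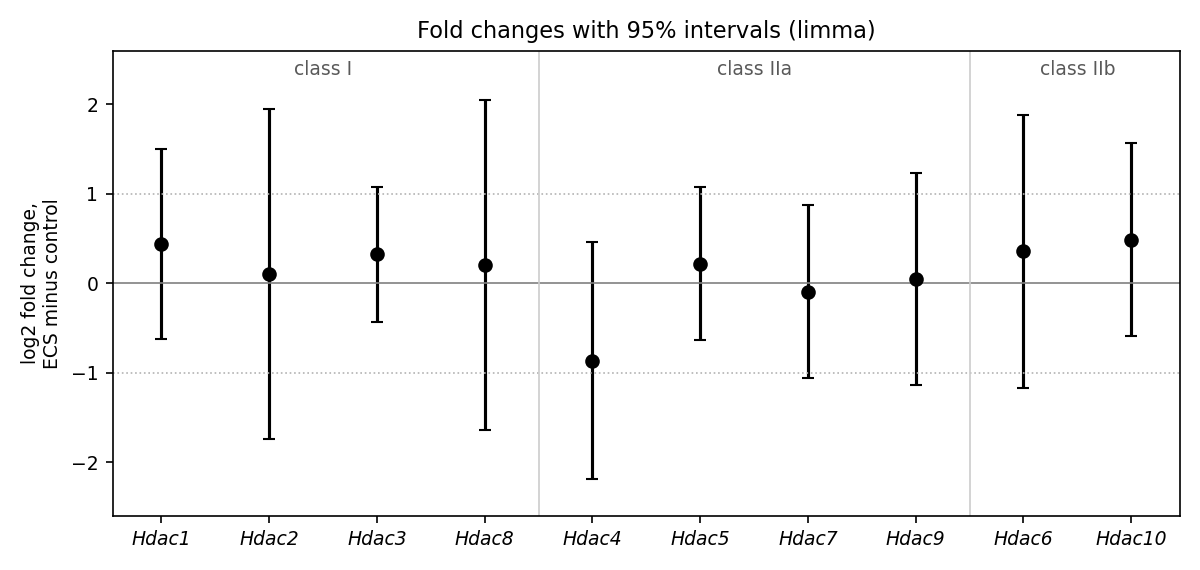
Log2 fold change of each member, ECS minus control, from limma on log2(FPKM + 1), with its 95% interval (n = 3 pools per group) and dotted lines at a 2-fold difference. Every interval crosses 0, and the point estimates run from -0.87 for Hdac4 to 0.48 for Hdac10.

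The precision differed between members. The 95% interval included a 2-fold higher level in ECS for 8 of 10 members and a 2-fold lower level for 6 of 10. It was narrowest for Hdac3 (0.74-fold to 2.11-fold) and widest for Hdac8 (0.32-fold to 4.15-fold). Both are on the log2(FPKM + 1) scale, which understates changes of low genes. The residual SD was below the median of all genes tested for 6 members and above it for Hdac2, Hdac4, Hdac6 and Hdac8. These intervals carry no adjustment for the number of genes tested, so they do not give the smallest difference that could have been called. Even without adjustment, differences above 2-fold lay within some of them. On the log2 scale the interval ran from -1.18 to 1.89 for Hdac6 and from -1.64 to 2.05 for Hdac8. Differences of 2-fold, and larger ones for some members, could thus have gone uncalled.

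Summed by class, the share of class I was higher in each ECS library than in each control library, while no single gene separated the groups. Class I made up 32.6%, 37.8% and 31.4% of the summed FPKM of the 10 genes in ECS 1, 2 and 3, and 27.3%, 24.7% and 30.1% in control 1, 2 and 3. The group means were 33.9 ± 3.39% in ECS and 27.4 ± 2.71% in control (SD, n = 3 each). Class IIa held 53.8 ± 4.50% in ECS and 61.7 ± 5.21% in control, with ECS 3 above control 2, and class IIb 12.2 ± 3.59% in ECS and 10.9 ± 7.60% in control, or 6.56% in control without control replicate 2. No test was run on these shares, since the members were chosen with results known, and for single genes 7.49% of all tested had groups without overlap. With Gm10093 added to Hdac1 the class I share ran from 32.6% to 40.4% in ECS and from 29.3% to 31.7% in control.

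In FPKM, class I summed to 32.5, 28.7 and 25.3 in ECS 1, 2 and 3, and to 23.4, 17.7 and 23.3 in control 1, 2 and 3. This order did not hold once each library was set to one common total: class I was then between 25.1 and 30.8 FPKM in ECS and between 15.4 and 28.0 FPKM in control. Scaled by median ratios instead, it was between 24.8 and 31.2 FPKM in ECS and between 17.6 and 22.8 FPKM in control, again without overlap. The summed neutrophil markers were lower in each ECS library (at most 10302 FPKM) than in each control library (at least 11036 FPKM), and Ngp, a granule protein gene, carried this: the other 7 markers each overlapped between the groups, and their sum did too (4437 to 5354 FPKM in ECS and 4944 to 11828 FPKM in control). The part of neutrophil transcripts in the class I share was not tested. All 10 genes together summed to 85.4 ± 12.7 FPKM in ECS and 78.2 ± 7.01 FPKM in control (SD, n = 3 each), with both ranges overlapping.

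**Figure D4:**
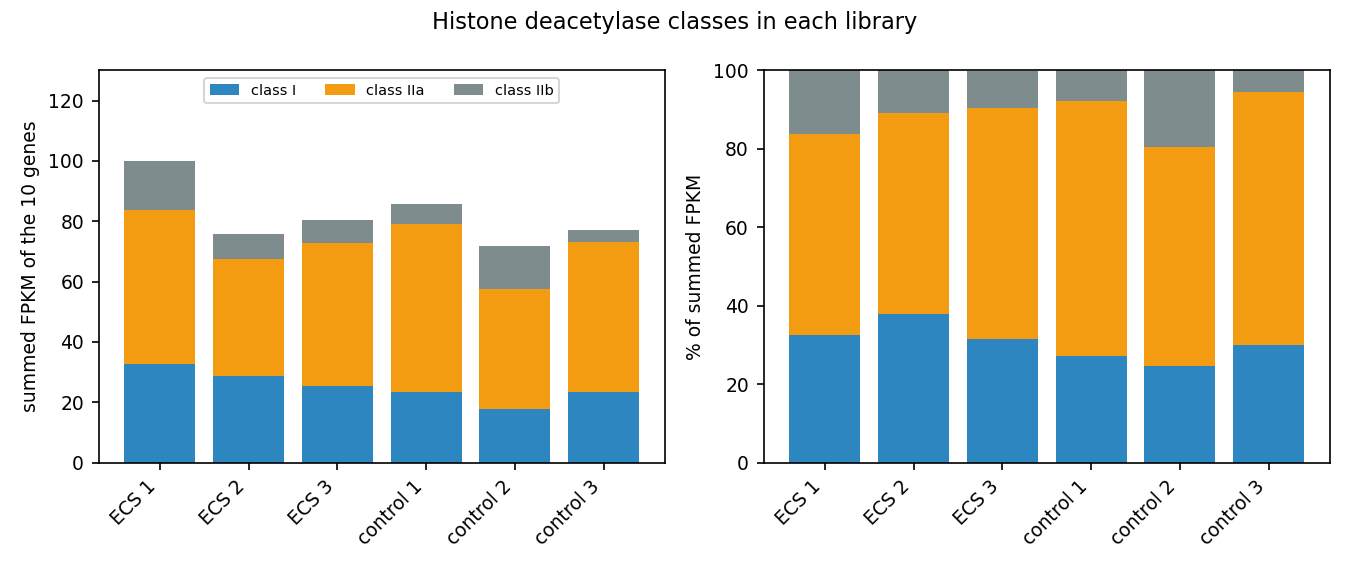
Summed FPKM of the 10 genes (left) and the percent of that sum (right) by class in each of the 3 ECS and 3 control pools. Class I takes 31.4% to 37.8% in ECS and 24.7% to 30.1% in control, and class IIa is the largest class in every library.

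The genes most like a member in pattern were found by the smallest root mean square difference of deviations from the gene's own mean of log2(FPKM + 1) over the 6 libraries. For Hdac5 these were Champ1, a zinc finger gene (difference 0.07), Tcirg1, a vacuolar ATPase subunit gene (0.09), and Nr1d1, a nuclear receptor gene of the circadian clock (0.10). Like Hdac5 they were lowest in control 3 and next lowest in ECS 2. Within the family, Hdac10 came closest to Hdac5 (0.15, rank 19 among tested genes without Gm or Rik names). For Hdac4 the nearest were Il1rl1, the receptor gene for interleukin 33 (0.15), Rundc3a (0.15) and Serac1 (0.21), each of them highest in control 3 and at or near 0 in ECS 1. All were low, at 4.58, 4.28 and 6.27 FPKM in control 3 in that order. In the other libraries they reached at most 1.84, 0.915 and 1.38 FPKM, so the likeness rests largely on control 3. With 6 libraries such likeness describes these libraries and no more.

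Partners and opposing enzymes were examined in 5 lists with 78 genes, of which 70 were tested. None was called in either direction (0 of 70, against 0% of all genes tested). At an unadjusted p under 0.05 in limma there was 1 of 70, Mta3, where 3.66% of all genes tested lay below that value. The log2 fold change was above 0 for 34 and below 0 for 36. Groups did not overlap for 2 genes with higher values in ECS (Kat5 and Rbbp7) and for 3 with lower values (Mta3, Arid4a and Chd3), where the shares over all genes tested were 3.70% and 3.79%. Rbbp7, Arid4a and Chd3 were named after their values were seen.

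Subunits of the complexes that hold Hdac1, Hdac2 and Hdac3 had 13 of 29 tested members above 0 and 16 below, with a median log2 fold change of -0.08. Rbbp4, a histone chaperone of Sin3 and NuRD, was the most abundant at 549 ± 150 FPKM in ECS and 721 ± 95.1 FPKM in control (SD, n = 3 each). Mta3, a NuRD scaffold, was at 32.2, 52.8 and 46.6 FPKM in ECS 1, 2 and 3, and at 76.8, 77.1 and 95.0006 FPKM in control 1, 2 and 3. The Mta3 log2 fold change was -0.93 ± 0.28 (SE), with an unadjusted p of 0.0123 and a limma adjusted p of 1.00. Rcor3 of the CoREST complex was at 6.81 ± 2.83 FPKM in ECS and 2.96 ± 2.10 FPKM in control, and Gps2 of the NCoR complex at 302 ± 112 FPKM in ECS and 179.5 ± 83.1 FPKM in control. The groups overlapped for both.

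Histone acetyltransferases, which add the mark that deacetylases remove, had 8 of 12 members above 0 and 4 below, with a median log2 fold change of 0.19. Kat7 was the most abundant, at 56.6 ± 14.9 FPKM in ECS and 49.0 ± 12.5 FPKM in control (SD, n = 3 each). Ep300, a coactivator that acetylates histones at enhancers, was at 30.7, 50.1 and 49.1 FPKM in ECS 1, 2 and 3, and at 16.0, 4.65 and 36.8 FPKM in control 1, 2 and 3. Its log2 fold change was 1.49 ± 0.66 (SE, limma adjusted p 1.00), with ECS 1 below control 3. Kat5, the catalytic subunit of the NuA4 complex, was at 22.4, 27.1 and 23.3 FPKM in ECS 1, 2 and 3, and at 19.2, 16.2 and 12.9 FPKM in control 1, 2 and 3, with a log2 fold change of 0.58 ± 0.29 (SE, limma adjusted p 1.00). Kat6b was at 21.4 ± 8.21 FPKM in ECS and 14.4 ± 9.52 FPKM in control.

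Partners of class IIa proteins (Mef2 factors, the kinases that drive nuclear export and the phosphoserine-binding proteins that hold them in the cytoplasm) had 8 of 19 tested members above 0 and 11 below, with a median of -0.02. Mef2d was the most abundant, at 1275, 733 and 1169 FPKM in ECS 1, 2 and 3, and at 963, 712 and 652 FPKM in control 1, 2 and 3, far above any deacetylase. ECS 2 lay among the control values, and the Mef2d log2 fold change was 0.43 ± 0.28 (SE). Ywhag was at 28.0 ± 6.21 FPKM in ECS and 20.1 ± 8.24 FPKM in control, and the export kinase gene Prkd2 at 13.9 ± 7.11 FPKM in ECS and 23.7 ± 14.9 FPKM in control (SD, n = 3 each).

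Other protein deacetylases had 2 of 7 tested members above 0 and 5 below, with a median of -0.09. Sirt2, a cytoplasmic deacetylase of tubulin, was at 119 ± 12.05 FPKM in ECS and 124 ± 11.1 FPKM in control (SD, n = 3 each), a higher level than that of any member. Sirt7 was at 19.4 ± 6.15 FPKM in ECS and 30.3 ± 12.1 FPKM in control, and Sirt6 at 2.503 ± 0.63 FPKM in ECS and 3.66 ± 1.09 FPKM in control. Sirt3 was listed at 0 in 2 control libraries, so no mean is given for it. Hdac11, the class IV enzyme, outside the rule for named genes and singled out after its values were seen, was at 0.0426, 8.37 and 0.872 FPKM in ECS 1, 2 and 3, and at 10.1, 0.484 and 0.591 FPKM in control 1, 2 and 3. It was above 8 FPKM in 1 library of each group and under 1 FPKM in the remaining libraries.

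Of the BET readers, which bind acetylated histones, Brd2 was at 2366 ± 195 FPKM in ECS and 2136 ± 891 FPKM in control, and Brd3 at 19.6 ± 6.34 FPKM in ECS and 17.2 ± 17.2 FPKM in control (SD, n = 3 each). Neither gene differed by more than the spread within control.

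**Figure D5:**
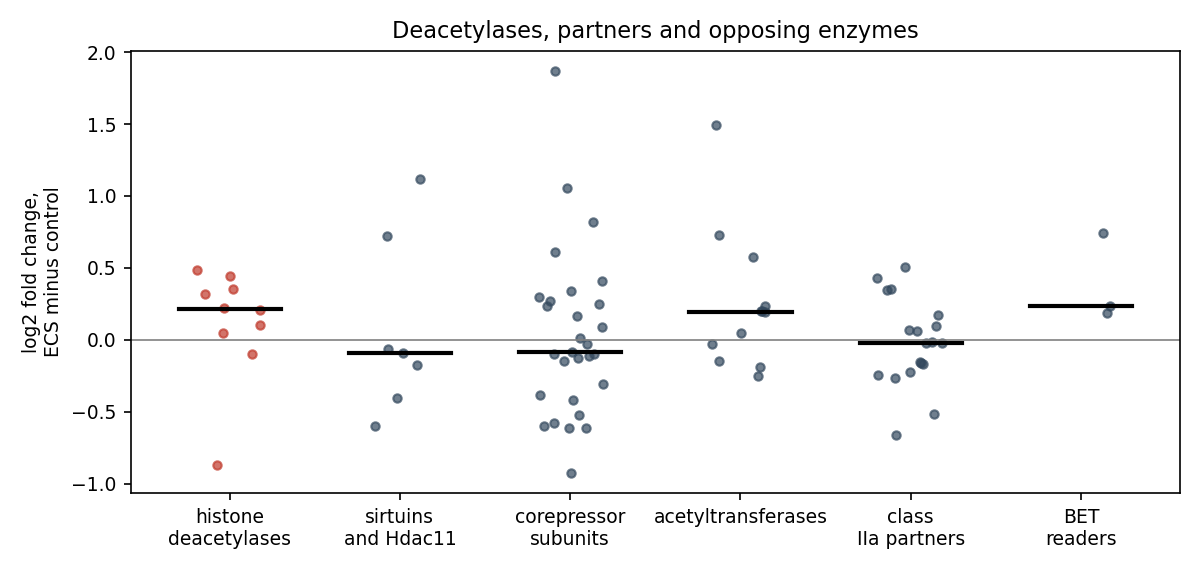
Log2 fold change, ECS minus control, of each tested gene in 6 lists, with a bar at each list's median and the deacetylases in red. The medians lie between -0.09 and 0.24, and the points of the deacetylases lie on both sides of 0.

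In GRCm38, with loci as deposited and strands from GENCODE M21, Hdac1 lies on chromosome 4 (129516104 to 129542713, minus strand), Hdac2 on chromosome 10 (36974544 to 37001889, plus strand) and Hdac3 on chromosome 18 (37935844 to 37954988, minus strand). Hdac4 is on chromosome 1 (91928779 to 92180341, minus strand), Hdac5 on chromosome 11 (102194432 to 102230166, minus strand) and Hdac9 on chromosome 12 (34371503 to 34528889, minus strand). Hdac7 (97784355 to 97844502) and Hdac10 (89123307 to 89128700) are on the minus strand of chromosome 15. Hdac6 (7930120 to 7947889) and Hdac8 (102252522 to 102505359) are on the minus strand of chromosome X. All are protein-coding genes, and 5 of the 10 deposited loci had the same ends as in GENCODE M21. A deposited locus can reach beyond its gene. Gm26720 spans 3578 bases in GENCODE M21 but was given the same deposited locus as Hdac4. The deposited loci of Hdac7 (60148 bases) and Hdac8 (252838 bases) were longer than in GENCODE M21 (51839 and 220721 bases).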

How the data were processed

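Poly(A) RNA of bead-selected CD11b-positive spinal cord cells was used for SENSE libraries, per the labels' protocols. The authors deposited FPKM per gene, 1 column per library. The submitters' processing notes name TopHat2, Cufflinks, Cuffnorm and GRCm38. No source used here gives versions, annotation, use of strand or the scaling between libraries. FPKM does not keep read numbers: low values of single-transcript genes, scanned for steps of whole reads, gave at most 27.0% within 0.1 of a whole multiple, where any 1 step gives 20% by chance. The depth is therefore unknown, and no counting interval is given.

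Samples were grouped by their labels. For a repeated symbol the row of highest mean was used. FPKM was transformed as log2(FPKM + 1), and 11315 genes averaging 1 FPKM or more were fitted with limma 3.58.1 in R 4.3.3 (variance trend, two-sided, ECS minus control, Benjamini-Hochberg over all genes tested, threshold 0.05). The fit was tested on simulated data. Lists give counts and medians only. Members and lists were chosen with earlier results of these data known. Named genes are all members and, of each list, the gene with the highest mean and the 3 with the smallest unadjusted p, plus the 3 genes most like Hdac5 and Hdac4. One gene that this rule names is not reported here. Shared sequence was searched as 50-base stretches in GENCODE M21 transcripts, and coding sequences were aligned with Biopython 1.88.

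Alternatives were pseudocounts of 0.1 and 0.5, other filters on low values, 3 rescalings, other variance models, library weights, a replicate block, symbols summed over rows, an adjusted p under 0.1, and leaving out single replicates. The sum of Hdac1 with Gm10093 was chosen after seeing the data.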

Additional observations from a re-analysis of the deposited data

How the results depend on the processing

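No member, no listed partner and no gene of all tested passed a limma adjusted p of 0.05 under any of the alternatives run. From 260 to 557 genes lay at an unadjusted p under 0.05. A limit of 0.1 was tried on the main fit only, where no gene passed and the smallest limma adjusted p was 0.127. With pseudocounts of 0.5 and 0.1 the smallest limma adjusted p of any gene was 0.081 and 0.098, so genes lay under 0.1 there. Over the alternatives the smallest adjusted p of a member was 0.874, and of 121 log2 fold changes of members from settings that can move them, 108 kept their sign. Hdac1, Hdac3, Hdac4 and Hdac10 had no turn, with ranges on leaving out 1 replicate of 0.16 to 0.80, 0.17 to 0.46, -1.37 to -0.34 and 0.21 to 0.71 in that order. The ranges were -0.38 to 0.80 for Hdac2, -0.051 to 0.44 for Hdac5, -0.035 to 0.97 for Hdac6, -0.27 to 0.19 for Hdac7, -0.34 to 0.85 for Hdac8 and -0.34 to 0.24 for Hdac9. With a pseudocount of 0.1 Hdac2 was at -0.34, and rescaled to the same total Hdac9 was at -0.042. The cause of these turns was not tested. A filter at 5 FPKM left 6 members to test. Rescaling moved the median of all genes by at most 0.08.

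With Gm10093 added to Hdac1, an alternative chosen after seeing the data, the class I share averaged 35.7% in ECS and 30.2% in control. Replicate numbers are shared between groups, but same-numbered libraries did not deviate together (correlations across genes of -0.04, 0.10 and -0.11). The replicate block is therefore only an alternative, and with it 0 genes were higher, 0 were lower and 0 members were called. The largest such correlation between the groups, 0.18, was that of ECS 3 with control 1, which have different numbers. These libraries were also the most alike of the series (r = 0.91 on log2(FPKM + 1)). What they share was not tested. The number of reads behind a value is unknown, so how much counting noise the low members carry cannot be given.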
